A study of Rattus norvegicus with 6 samples.

Results

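The constitutive proteasome subunits are the genes whose symbols begin with Psma, Psmb, Psmc or Psmd followed by a digit, without the inducible catalytic subunits Psmb8, Psmb9 and Psmb10. They were found through the RefSeq accession of each probe, and 35 of the 15645 named genes on the array met the rule, with 61 probes. Of these, 14 members form the core, 16 belong to the cap and 5 belong to neither. Psmd11 and Psmb11 have no matched probe here and are not analysed. The rule itself used names and no measured value.

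The study measured renal cortex RNA of 6 rats, all male and of the Sprague-Dawley stock Crl:CD(SD), bought at 5 weeks of age. The 3 vehicle rats were given corn oil for 4 weeks. The 3 treated rats were given N,N'-dinitrosopentamethylenetetramine (DNPT), a blowing agent of the rubber industry, at 200 mg/kg/day for the same 4 weeks. The labels name no route of dosing, a single dose and time were studied, and whole cortex mixes many cell types. Each sample was a separate animal with its own single-colour array.

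The 26S proteasome degrades proteins that carry ubiquitin chains. Its core is a barrel of stacked rings: outer alpha rings gate the entry, and inner beta rings hold the proteolytic sites of Psmb5, Psmb6 and Psmb7. The cap recognises ubiquitin, removes it, and unfolds and threads the substrate, using a ring of ATPases (the Psmc genes), base subunits and a lid (the Psmd genes). Subunits are made in matched amounts, and when proteasome activity is short, the transcription factor Nfe2l1 is known to raise most subunit genes together. The kidney tubule reabsorbs and degrades much protein by the lysosome as well, so the proteasome is not its only route.

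Promoter letters are shown for the member with the smallest p in the alpha ring, the beta ring, the ATPase ring and the non-ATPase base, because subunit genes are known to share such elements. The lid member with the smallest p, Psmd12, is named only. Each line gives the 250 bases before the annotated start from RefSeq, assembly GRCr8, read 5′ to 3′ on the gene's own strand. The windows are chr8:64236270-64236519 (forward strand), chr5:144254808-144255057 (forward strand), chr4:14162391-14162640 (reverse strand) and chr2:185297202-185297451 (reverse strand), in the order of the lines. Capitals mark every match, on either strand, to 4 motifs: the antioxidant response core TGANNNNGC (the element type that Nfe2l1 binds), the CCAAT box, the E-box with the letters CACGTG, and the GC box with the letters GGGCGG.
Psma4: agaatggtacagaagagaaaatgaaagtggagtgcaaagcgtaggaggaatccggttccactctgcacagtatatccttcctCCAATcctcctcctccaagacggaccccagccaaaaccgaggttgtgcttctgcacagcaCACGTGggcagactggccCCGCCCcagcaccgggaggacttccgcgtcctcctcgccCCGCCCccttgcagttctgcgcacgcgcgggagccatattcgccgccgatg
Psmb2: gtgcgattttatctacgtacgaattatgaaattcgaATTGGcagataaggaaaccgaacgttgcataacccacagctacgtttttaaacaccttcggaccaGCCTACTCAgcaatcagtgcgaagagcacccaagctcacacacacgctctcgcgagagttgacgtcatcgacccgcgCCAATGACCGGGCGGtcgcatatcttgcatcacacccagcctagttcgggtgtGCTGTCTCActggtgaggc
Psmc2: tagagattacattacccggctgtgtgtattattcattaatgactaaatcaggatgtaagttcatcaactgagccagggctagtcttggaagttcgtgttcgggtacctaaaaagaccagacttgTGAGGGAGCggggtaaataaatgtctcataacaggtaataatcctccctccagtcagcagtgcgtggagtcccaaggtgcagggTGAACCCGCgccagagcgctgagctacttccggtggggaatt
Psmd4: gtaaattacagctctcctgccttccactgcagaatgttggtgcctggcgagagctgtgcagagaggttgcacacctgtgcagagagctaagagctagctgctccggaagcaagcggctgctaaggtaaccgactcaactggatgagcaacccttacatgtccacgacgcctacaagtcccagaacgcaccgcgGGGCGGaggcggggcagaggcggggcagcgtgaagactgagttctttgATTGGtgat

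Psmb2 held the antioxidant response core at 3 places and the CCAAT box at 2, and in one stretch a CCAAT box, an antioxidant response core and a GC box run into each other. Psmc2 held the antioxidant response core at 2 places and none of the other motifs in these letters. Psma4 had no match to that core here but 1 CCAAT box, 1 E-box and 2 GC boxes, and Psmd4 had 1 CCAAT box and 1 GC box. The members therefore differ in which of these letters they carry although they belong to one particle.

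Over windows of 300 bases (250 before the start and 50 after it), 31 of the 35 members had a promoter entry. The antioxidant response core occurred in 19 of them (61.3%), against 40.4% of all 27457 promoters and 42.5% of the 10347 promoters of genes tested here. The CCAAT box occurred in 17 (54.8%), against 37.7% of all promoters and 37.9% of those of tested genes. The GC box occurred in 23 (74.2%), against 34.9% of all promoters but 56.1% of those of tested genes. The E-box occurred in 4 (12.9%), against 6.65% of all promoters and 8.7% of those of tested genes. On the core side, 9 of 13 promoters held the antioxidant response core and 9 the CCAAT box, and on the cap side 7 of 13 and 5 did. Matches of different motifs overlapped in 4 of the 31 windows. These are matches of letters and not binding measurements.

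Values below are log2 of the processed signal relative to the 75th percentile of the same array, so a difference of 1 is a doubling. The scale serves to compare one gene between rats and says nothing of which gene is more abundant. Of 61537 probes, 44305 were tested because they were well above background on at least 3 arrays, and 42116 to 45167 probes per array were. All 10 proximal tubule markers passed this filter, and renal cortex is rich in that cell type. The vehicle rats and DNPT 1 shared a slide and scan, while DNPT 2 and DNPT 3 were on a second slide, so 2 of the 3 treated rats have no vehicle rat on their slide. The number of arrays limits the precision.

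No proteasome subunit passed the test. With limma and Benjamini-Hochberg adjustment over all 34915 features, 0 of 35 members were called, where 0.0% of all features were. The lowest adjusted p among the members was 0.440, for Psma4, and the highest was 0.982, for Psmd3. At an unadjusted p under 0.05, limma again gave 0 of 35 members, while 12.1% of all features and 11.9% of the 4941 named genes in the same signal range as core and cap (0.63 to 5.70) reached it. Each gene was read here by its brightest tested probe. In a limma fit of single probes, another probe of Psmd6 was lower (-0.30, unadjusted p 0.0465). Another probe of Psmc6 was higher in that fit (0.22, unadjusted p 0.048). All 35 members passed the filter on dim signal, each well above background on all 6 arrays with its tested probe.

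Beyond the absence of calls, the intervals limited how large the difference between these groups could be for the chosen probe of each gene. They do not separate treatment from slide, and some other probes of members had wider intervals. For 29 of the 30 core and cap members (96.7%), the 95% confidence interval of the change lay within 0.5 log2 units, or 1.41-fold, of no change in either direction. The same held for 72.5% of named genes in the signal range and for 46.5% of all features. All 35 members had intervals within 1 log2 unit, but only 12 of the 30 within 0.3 units (1.23-fold). Core and cap genes also varied little between rats of a group: their median within-group SD was 0.081, against 0.103 in the signal range and 0.178 over all features. These are counts over genes that were measured on the same arrays, and no test was made of the members as a list.

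**Figure D1:**
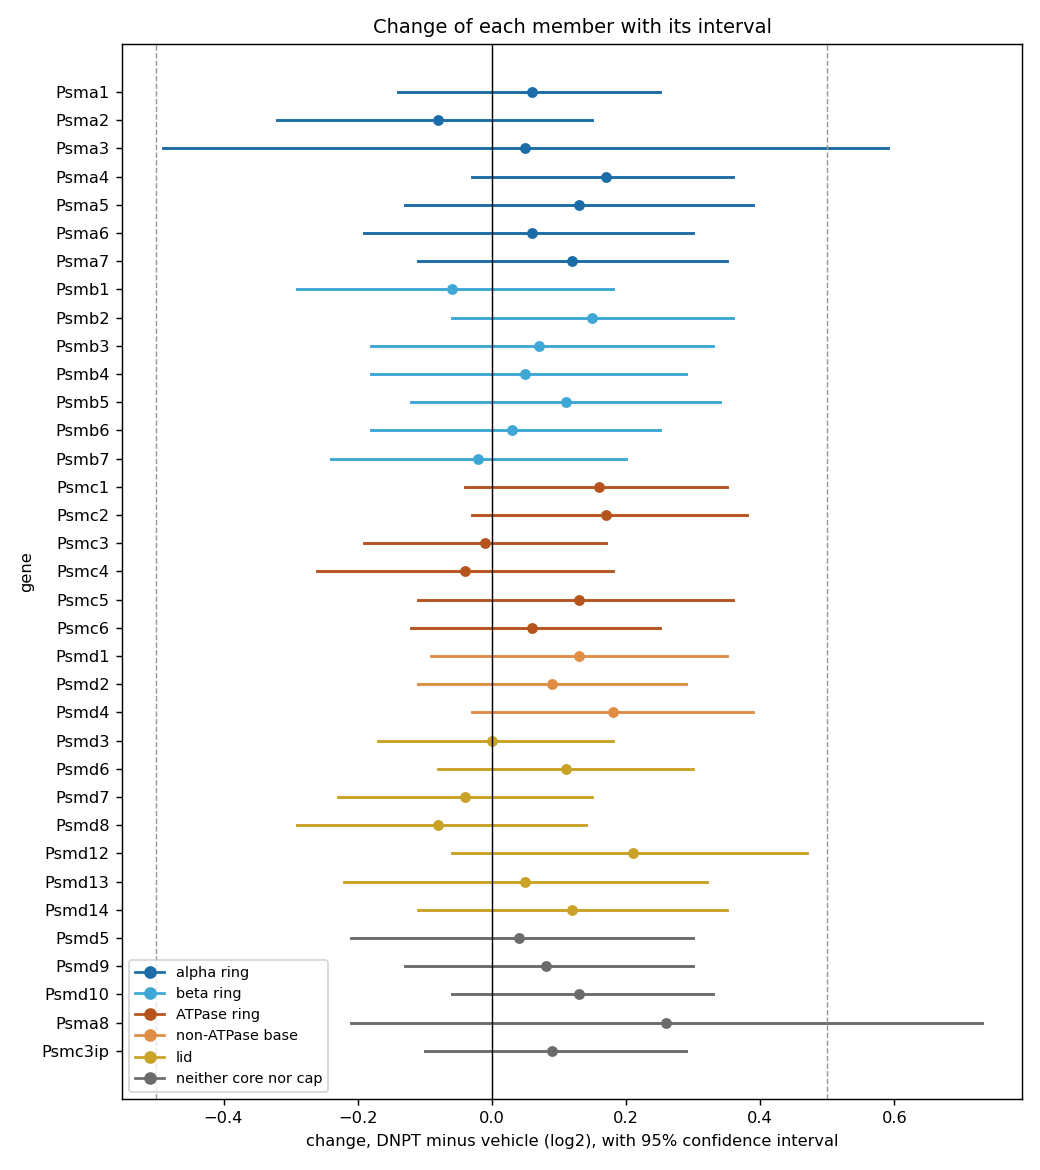
Change of each of the 35 members (DNPT minus vehicle, log2, horizontal axis) as a point, with its 95% confidence interval as a line, coloured by role. Every interval crosses 0, and those of Psma3 and Psma8 alone reach beyond the dashed lines at 0.5 log2 units.

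The alpha ring forms the gate of the core, and 6 of its 7 genes had a positive change, with a median of 0.06. Psma4 measured 5.25, 5.27 and 5.32 in the vehicle rats and 5.37, 5.51 and 5.47 in the DNPT rats. All 3 treated rats lay above all 3 controls. The change was 0.17 (SE 0.08), or 12.2%, with a 95% interval from -0.03 to 0.36 and an adjusted p of 0.440 with limma, which does not pass. On the first slide alone, DNPT 1 was 0.09 above the vehicle mean.

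Psma5 measured 3.26, 3.30 and 3.41 in vehicle and 3.29, 3.55 and 3.52 in DNPT. DNPT 2 and DNPT 3 stood above every control, and DNPT 1 lay among them. The change was 0.13 (SE 0.11, adjusted p 0.599), and it was -0.03 on the first slide. Psma7 had the same order, at 4.57, 4.67 and 4.67 against 4.64, 4.83 and 4.81, with a change of 0.12 (SE 0.09, adjusted p 0.584). Psma1 and Psma6 had changes of 0.06 each, and Psma2 one of -0.08, all with overlapping groups.

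Psma3 was the exception to the narrow spread. It measured 3.76, 3.81 and 3.34 in vehicle and 3.29, 3.89 and 3.88 in DNPT. A rat of each group, vehicle 3 and DNPT 1, was low, and the change of 0.05 had an SE of 0.22 and an interval from -0.49 to 0.59. The second Psma3 probe did not show this: it read 1.71, 1.85 and 1.75 against 1.94, 1.62 and 1.63, a change of -0.04.

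The beta ring carries the proteolytic sites, and 5 of its 7 genes had a positive change, with a median of 0.05. Psmb5, the chymotrypsin-like site and the target of bortezomib, measured 4.39, 4.46 and 4.46 in vehicle and 4.42, 4.55 and 4.67 in DNPT. DNPT 1 lay within the controls and the other 2 treated rats above them. The change was 0.11 (SE 0.09, interval -0.12 to 0.34, adjusted p 0.632).

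The other catalytic subunits were nearer to no change. Psmb6, the caspase-like site, measured 2.62, 2.79 and 2.77 against 2.70, 2.80 and 2.78, with a change of 0.03 (SE 0.09, adjusted p 0.888). Psmb7, the trypsin-like site, measured 2.99, 3.12 and 2.94 against 2.95, 2.97 and 3.08, with a change of -0.02 (SE 0.09, adjusted p 0.944). The groups overlapped for both.

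Psmb2, a non-catalytic beta subunit, had no overlap between groups. It measured 4.0, 4.17 and 4.15 in vehicle and 4.21, 4.26 and 4.31 in DNPT, with vehicle 1 the lowest rat. The change was 0.15 (SE 0.09, adjusted p 0.484). The remaining structural beta subunits Psmb1, Psmb3 and Psmb4 had changes of -0.06, 0.07 and 0.05, with overlapping groups.

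The cap ATPases unfold substrates and open the core gate, and 4 of the 6 had a positive change, with a median of 0.10. Psmc2 measured 4.89, 4.92 and 5.03 in vehicle and 5.06, 5.12 and 5.17 in DNPT, a change of 0.17 (SE 0.08, interval -0.03 to 0.38, adjusted p 0.444). Psmc1 measured 4.42, 4.46 and 4.43 against 4.54, 4.56 and 4.68, a change of 0.16 (SE 0.08, adjusted p 0.457). For both genes every treated rat lay above every control, including DNPT 1 on the slide of the controls, by 0.12 and 0.10 over the vehicle mean. Psmc5 measured 5.55, 5.65 and 5.71 against 5.70, 5.70 and 5.90, where DNPT 3 alone was clearly higher, and the change was 0.13 (SE 0.10, adjusted p 0.581).

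Within the same hexamer, Psmc6 also had non-overlapping groups, with a smaller change of 0.06. They barely separated, as vehicle 2 and DNPT 2 both rounded to 3.25. Psmc3 and Psmc4 had changes of -0.01 and -0.04 with overlapping groups. The Psmc3 values were close together, at 3.00, 3.05 and 3.02 against 2.99, 3.00 and 3.05, and its interval ran from -0.19 to 0.17.

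The base also holds Psmd4, a ubiquitin receptor, and the large scaffold subunits Psmd1 and Psmd2, and all 3 had positive changes with a median of 0.13. Psmd4 measured 3.41, 3.47 and 3.50 in vehicle and 3.54, 3.65 and 3.72 in DNPT. The groups did not overlap, and the change was 0.18 (SE 0.09), or 13.0%, with an interval from -0.03 to 0.39 and an adjusted p of 0.444. On the first slide the change was 0.08.

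Psmd1 differed between the slides. It measured 5.11, 5.08 and 5.11 in vehicle and 5.11, 5.30 and 5.31 in DNPT. DNPT 1 equalled the controls, while the treated rats of the second slide were about as high as each other. The change was 0.13 (SE 0.09, adjusted p 0.535) over all rats and 0.00 on the first slide. Psmd2 measured 5.44, 5.58 and 5.54 against 5.55, 5.62 and 5.64, a change of 0.09 (SE 0.08, adjusted p 0.654), with DNPT 1 among the controls.

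The lid removes ubiquitin chains through Psmd14, a metalloprotease, and 5 of its 7 measured genes had a positive change, with a median of 0.05. Psmd12, a lid scaffold subunit, had the largest change of all core and cap genes. It measured 3.91, 3.93 and 4.02 in vehicle and 3.99, 4.29 and 4.21 in DNPT, where DNPT 1 lay below vehicle 3. The change was 0.21 (SE 0.11), or 15.5%, with an interval from -0.06 to 0.47 and an adjusted p of 0.460, and it was 0.03 on the first slide.

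Psmd14 measured 0.50, 0.55 and 0.64 in vehicle and 0.68, 0.59 and 0.79 in DNPT, so DNPT 2 lay among the controls. Its change was 0.12 (SE 0.09, adjusted p 0.581). Psmd6 had no overlap, at 4.48, 4.50 and 4.54 against 4.57, 4.60 and 4.68, and a change of 0.11 (SE 0.08, adjusted p 0.543). Psmd3 was the steadiest member by its chosen probe, with every rat between 1.86 and 1.89 and a change of 0.00 (SE 0.07). Its second tested probe ran from 1.58 to 1.78, with a change of -0.02 (SE 0.09). Psmd7, Psmd8 and Psmd13 had changes of -0.04, -0.08 and 0.05 with overlapping groups.

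Members in neither side were the base chaperones, the tissue-restricted subunit Psma8 and Psmc3ip. Psmd10 (gankyrin), a chaperone of the ATPase ring, measured 1.45, 1.41 and 1.44 in vehicle and 1.50, 1.65 and 1.55 in DNPT, without overlap, and its change was 0.13 (SE 0.08, adjusted p 0.501). The chaperones Psmd9 and Psmd5 had changes of 0.08 and 0.04 with overlapping groups. Psmc3ip, a meiotic recombination factor that shares only the name, had a change of 0.09.

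Psma8, the alpha subunit of testis, was dim: 3 of its 4 probes did not pass the filter. The tested probe read -5.51, -5.31 and -5.52 in vehicle and -4.79, -5.45 and -5.31 in DNPT. DNPT 1 alone was high, so that the change was 0.26 (SE 0.19, adjusted p 0.572) over all rats but 0.65 on the first slide (limma adjusted p 0.456, with 0.456 to 0.930 over the alternatives). It was the 1 member at an unadjusted p under 0.05 on the first slide alone, where 7.84% of all features were, and with slide as a block, where 6.85% were.

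**Figure D2:**
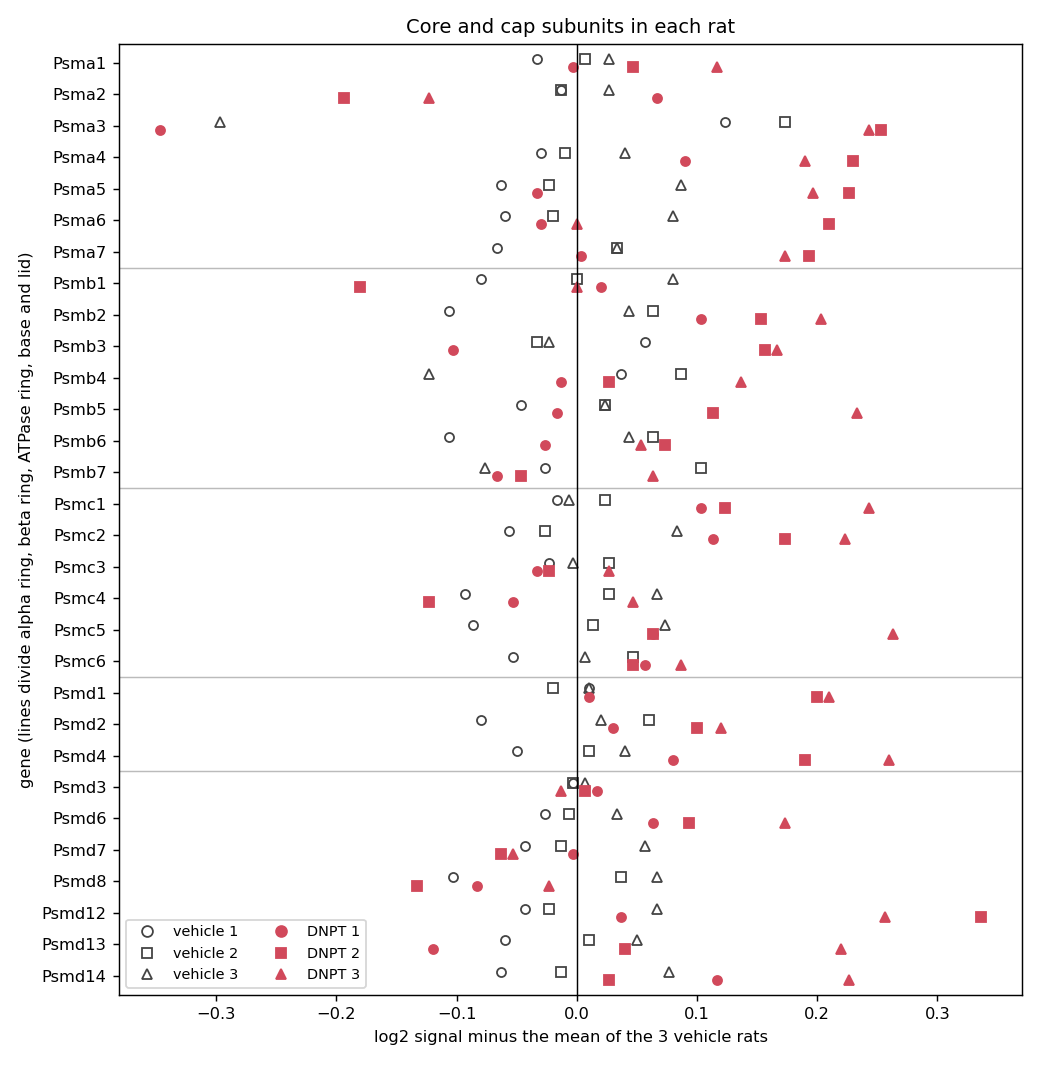
Log2 signal of each core and cap gene in each rat minus the mean of the 3 vehicle rats (horizontal axis); open grey symbols are vehicle rats, filled red symbols DNPT rats, and the shape gives the replicate number. DNPT 2 and DNPT 3 lie to the right of DNPT 1 for 21 of the 30 genes, and the low pair of Psma3 is vehicle 3 and DNPT 1.

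Counted together, 8 of 35 members had all 3 DNPT values above all 3 vehicle values, against 11.9% of all features. They were Psma4 and Psmb2 of the core, Psmc1, Psmc2, Psmc6, Psmd4 and Psmd6 of the cap, and Psmd10. None lay wholly below, where 8.32% of all features did. Set beside named genes of the same signal range, of which 22.8% lay wholly above and 3.83% wholly below, the 7 of 30 core and cap genes were near the background.

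The signs followed the same pattern. A positive change was found for 11 of 14 core genes and 12 of 16 cap genes, together 76.7%, while 51.9% of all features but 72.7% of the named genes in the signal range were positive. The median change was 0.069 over core and cap and 0.082 over the named genes in the signal range, against 0.011 over all features. The median size of the change was smaller for core and cap, at 0.080, than in the signal range, at 0.120. The small positive median of the proteasome was thus about that of genes of like signal on these arrays.

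It also depended on how the arrays were scaled. Under quantile normalization 16 of 30 core and cap genes (53.3%) were positive, and under cyclic loess 14 (46.7%), where the named genes in the signal range gave 61.1% and 57.6%. Over 6 scalings, 12 of the 30 genes were positive under each one (4 core, 8 cap), 5 were negative under each one (Psma2, Psmb1, Psmc4, Psmd7 and Psmd8), and 13 took either sign. Psma4, Psmb2, Psmc1, Psmc2, Psmd4 and Psmd6 were among the genes that stayed positive under the scalings, while the sign of Psmc6 depended on the scaling.

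Core and cap were then set against each other. The median change was 0.056 for the core and 0.100 for the cap, and the core median minus the cap median was -0.044. The difference taken from each rat's own medians had a pooled within-group SD of 0.050, with a wider spread in DNPT than in vehicle. That SD belongs to single rats and is not a standard error of the -0.044. Per rat, the core minus cap difference was 0.013, 0.002 and -0.010 in vehicle and -0.052, 0.076 and -0.035 in DNPT. DNPT 2 had the core above the cap, and the other 2 treated rats had the cap above the core, so the groups overlap. Leaving out DNPT 1 turned the difference of -0.044 to 0.036, leaving out vehicle 1 turned it to 0.010, and averaging all tested probes of a gene turned it to 0.013. With core and cap taken by name, so that chaperones and like-named genes count, it was -0.034. Leaving out DNPT 1 also changed the probe that stood for Psmb4, whose change went from 0.05 to 0.58. The value of 0.036 thus mixes a left-out rat with a change of probe.

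The rats differed more than the sides did. Core medians relative to the vehicle mean were -0.018 in DNPT 1, 0.131 in DNPT 2 and 0.154 in DNPT 3, and cap medians were 0.034, 0.056 and 0.189. The vehicle rats ranged from -0.041 to 0.033 for the core and from -0.054 to 0.044 for the cap. DNPT 1 lay inside the vehicle range for both sides, and DNPT 2 and DNPT 3 lay above it. Named genes in the signal range had medians of 0.043, 0.105 and 0.110 in the treated rats and -0.024 to 0.024 in the vehicle rats, so that there DNPT 1 lay above the controls too.

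**Figure D3:**
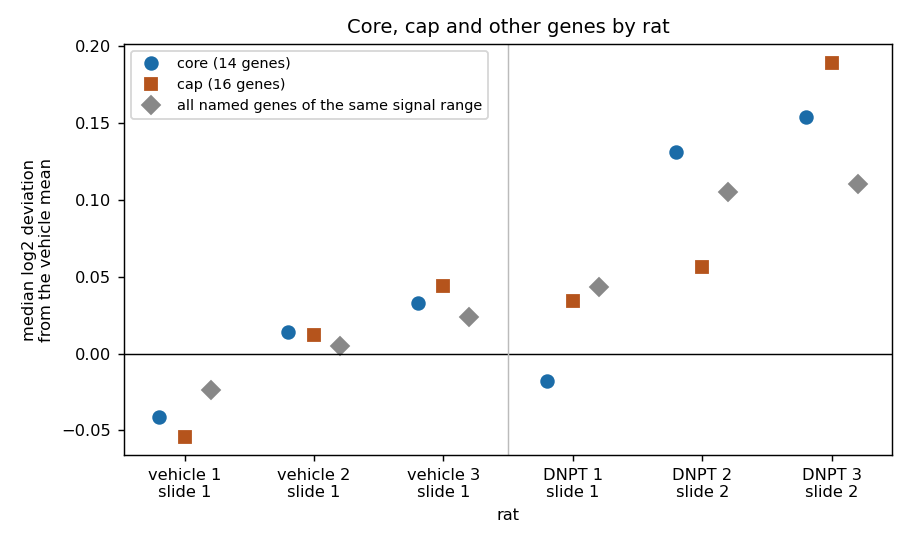
Median log2 deviation from the vehicle mean (vertical axis) in each rat for the 14 core genes, the 16 cap genes and the 4941 named genes of the same signal range, with the slide under each rat. DNPT 1, on the slide of the vehicle rats, lies among them for core and cap, and DNPT 2 and DNPT 3 on the second slide lie above.

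Core and cap were also counted by slide, with no test of the difference between them. DNPT 2 and DNPT 3 both exceeded DNPT 1 in 12 of 14 core genes and 9 of 16 cap genes, and in 51.2% of named genes in the signal range. On the first slide alone, 4 of 14 core genes and 12 of 16 cap genes were positive, and the medians were -0.018 and 0.034. There DNPT 1 lay above all 3 vehicle rats for 3 core and 7 cap genes and below them for 2 of each. Of the named genes in the signal range, 39.0% lay above and 17.2% below. Treatment cannot be told apart from slide for DNPT 2 and DNPT 3.

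Without DNPT 1 the medians were 0.166 for the core and 0.129 for the cap, and no member passed the adjusted test, although 1.85% of all features did. At an unadjusted p under 0.05, limma then gave 4 of 35 members (Psma4, Psmd1, Psmd4 and Psmd12), where 21.0% of all features reached it. This choice leaves both treated rats on one slide and all controls on the other. It also reads Psmb4 by its other probe, whose change of 0.58 enters the core median of 0.166.

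Several members have more than 1 probe, which gives a second reading of the same RNA. Of 18 genes with several tested probes, 9 had probes of differing sign: Psma3, Psma6, Psmc4, Psmd2, Psmd3, Psmd6, Psmd7, Psmd9 and Psmd13. The changes were small in all of them except Psmd6. Its second probe read 2.16, 2.22 and 2.01 in vehicle and 1.99, 1.64 and 1.85 in DNPT, a change of -0.30 (SE 0.12) against 0.11 for the brighter probe. All 3 treated rats lay below the controls with the one probe and above them with the other, so the array gives no single direction for Psmd6.

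Other probes of the genes without overlap gave smaller changes for some genes and larger ones for others. The second probe of Psma4 had a change of 0.07, that of Psmc2 0.07 and that of Psmc1 0.05. Each had the same sign as the first, but the groups overlapped with each of these second probes. The probes of Psmc6 had changes of 0.06, 0.05 and 0.22, and the groups overlapped only with the probe at 0.05. Psmb2, Psmd4 and Psmd10 have 1 probe each.

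A few member probes shared an odd pattern, in which vehicle 3 and DNPT 1 were both low. Per the file headers, those are the arrays in column 4 of their slide position, and the pattern was found after the values were seen. The second probe of Psmb4 read 5.03, 5.09 and 3.71 in vehicle and 3.87, 5.13 and 5.26 in DNPT. The second probe of Psmd12 read 3.02, 3.14 and 2.43 against 2.47, 3.10 and 3.14. Both column 4 rats lay far under the 4 others, in either group.

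In all, 4 of 58 tested member probes were lower by over 0.2 log2 units in both column 4 arrays than in each of the other 4, namely the brighter probe of Psma3 and the second probes of Psma4, Psmb4 and Psmd12. None was higher. Over all 44305 tested probes, 3.23% were lower and 1.67% higher by that margin. The other tested probe of each of these 4 genes was not lower by that margin, and the cause of the pattern was not tested. With array column as a block, limma gave no member at an unadjusted p under 0.05, where 12.4% of all features reached it.

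**Figure D4:**
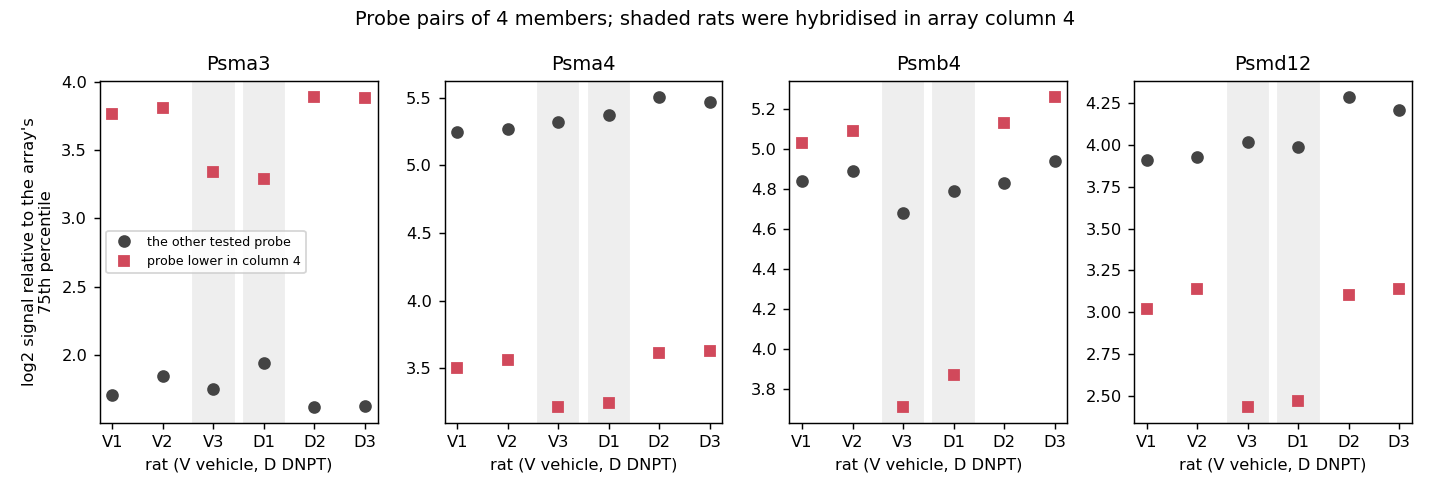
Log2 signal relative to the 75th percentile (vertical axis) of both tested probes of Psma3, Psma4, Psmb4 and Psmd12 in each rat (V vehicle, D DNPT); grey bands mark the rats whose arrays were in column 4. The red probe of each gene drops in V3 and D1, to 3.71 and 3.87 for Psmb4, and the black probe of the same gene does not drop by over 0.2 below the other rats.

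RefSeq lists like-named copies, such as pseudogenes, for 15 of the 35 members, with 10 for Psmb3 and 5 for Psma6. Whether the probes of these genes also bind RNA of such copies was not tested.

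Genes around the proteasome were read from lists in the same fit, and none of their members passed the adjusted test. Nfe2l1, the activator of subunit genes, measured 0.58, 0.60 and 0.63 in vehicle and 0.77, 1.07 and 0.80 in DNPT. All treated rats, DNPT 1 included, lay above all controls, and the change was 0.28 (SE 0.11), with an unadjusted limma p of 0.0414 and an adjusted p of 0.406. Nfe2l1 was the only one of 7 measured regulators (14.3%) with an unadjusted limma p under 0.05, where 12.1% of all features had one. Its relative Nfe2l2, whose protein rather than RNA is mainly regulated, had a change of -0.03, and Vcp, the segregase that extracts ubiquitinated proteins, one of -0.07.

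The assembly factors Pomp, which matures the core, and Psmg4 had changes of 0.15 and 0.16. Psmg4 measured 2.48, 2.56 and 2.66 against 2.74, 2.76 and 2.69, without overlap. Of the 3 assembly factors measured of 6 listed, 2 were positive, with a median of 0.15. Sem1, a small lid protein outside the naming rule, measured 5.34, 5.39 and 5.52 against 5.57, 5.57 and 5.59, without overlap, and its change was 0.16. Among the 4 cap partners measured of 7 listed, 3 were positive.

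Of the shuttle receptors and ubiquitin supply genes, 10 of 11 were positive, with a median of 0.10. The ubiquitin gene Ubb measured 8.40, 8.34 and 8.43 in vehicle and 8.51, 8.60 and 8.44 in DNPT, a change of 0.13 (SE 0.08). DNPT 3 lay close to the highest control, so the groups barely separated. All 8 cofactors of Vcp were positive or 0.00, with a median of 0.08. These medians too stand beside 0.082 for named genes in the signal range of core and cap.

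The immunoproteasome list differed in its median, at -0.06 over 5 genes, of which 2 were positive. The PA28 activator subunits Psme1 and Psme2 had changes of 0.03 and 0.12. The inducible subunit Psmb8, named here after its values were seen, measured 0.50, 0.67 and 0.28 in vehicle and -0.16, 0.41 and 0.65 in DNPT. DNPT 1 was the lowest rat for Psmb8, and the change of -0.18 had an SE of 0.23. Psmb9, with DNPT 1 at 0.49 and every other rat between 1.01 and 1.26, and Psmb10 had changes of -0.08 and -0.06. Of the other regulators of the core, Psmf1 had a change of 0.05, Psme3 one of -0.10 and Psme4 one of 0.27 (SE 0.22), all with the adjusted test not passed.

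Markers of cell types were read as lists, which were not tested, and no single marker passed the adjusted test. The summed level of a list is the log2 of its summed linear signals, so its brightest probes weigh most. It was taken under the 75th percentile scaling alone. Under that scaling 51.9% of all features and 72.7% of named genes in the signal range of core and cap were positive. The proximal tubule markers had mean signals above that range. The summed level of 10 proximal tubule markers was 11.23 to 11.32 in vehicle and 11.40 to 11.60 in DNPT, with 9 of 10 positive and changes of 0.42 for Slc5a2 and 0.26 for Fbp1. That of 9 lymphocyte markers was 2.25 to 2.38 in vehicle and 2.01 to 2.16 in DNPT, with 7 of 9 negative. That of 7 macrophage markers was 6.15 to 6.48 against 5.87 to 6.27, with 6 of 7 negative and DNPT 1 the lowest. The groups did not overlap for the proximal tubule and lymphocyte lists and overlapped for the macrophage list. A lower share of a cell type and less RNA per cell cannot be told apart in whole cortex.

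The 7 red blood cell markers were all positive, with summed levels of 9.10 to 9.40 in vehicle and 9.47 to 9.64 in DNPT, without overlap. The 8 liver and plasma protein transcripts were all positive in change, but their summed level was 4.96 in DNPT 3 and 1.38 to 2.44 in the 5 other rats. DNPT 3 was also the highest rat for 10 of 16 cap genes and 5 of 14 core genes, against 32.5% of named genes in the signal range. Without DNPT 3 the medians were 0.026 for the core and 0.065 for the cap. Markers of thick limb, podocyte and collecting duct were negative in 6 of 8, inner medulla markers in 5 of 5, and fat and adrenal markers in 3 of 4, and the summed levels of these lists overlapped between the groups. The part of these markers in the proteasome values was not tested.

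**Figure D5:**
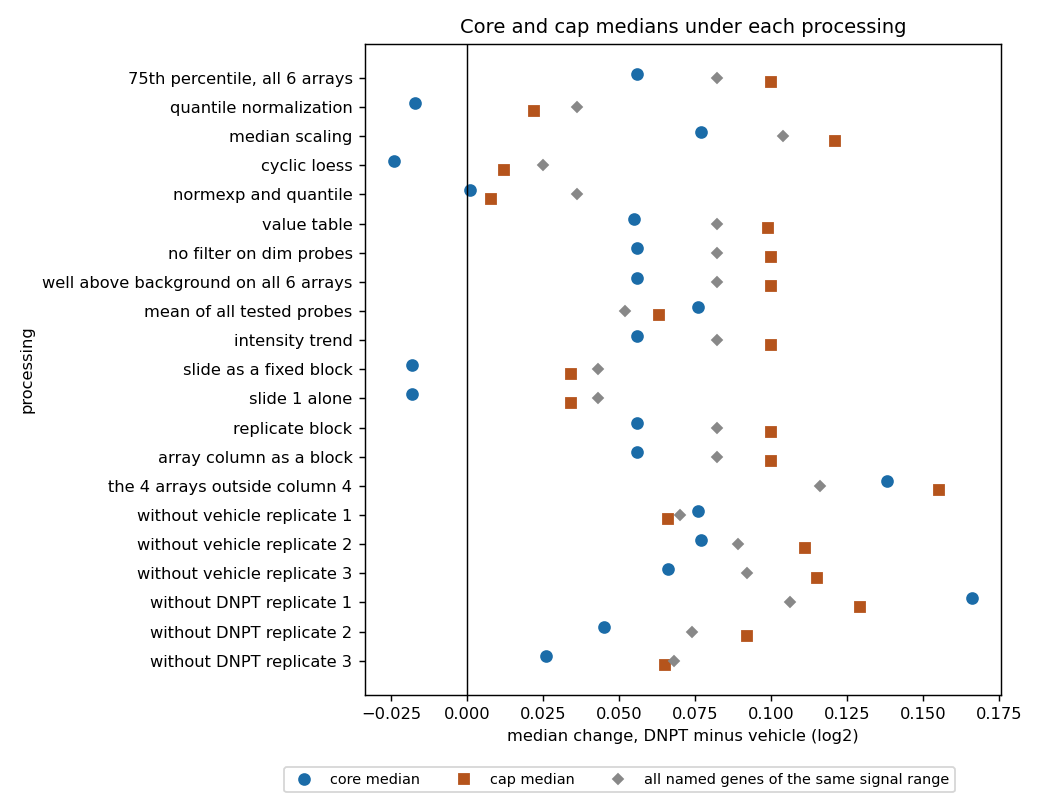
Median change of core (circles), cap (squares) and named genes of the same signal range (diamonds), DNPT minus vehicle in log2 units on the horizontal axis, under each way of processing on the vertical axis. The core median lies below 0 under quantile normalization (-0.017), cyclic loess (-0.024) and slide as a block or slide 1 alone (-0.018), and the cap median stays between 0.008 and 0.155.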

How the data were processed

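Members, roles and gene lists were chosen with earlier results of these data known. Total RNA was made into Cy3-labelled cRNA, and Agilent Feature Extraction 10.7 read the arrays, per the submitters' processing notes. Per the file headers, the processed signal is a background-corrected linear intensity, and the array design is on rn4. The authors' value table is a linear ratio of that signal to 1 constant per array (for 100% of probes within 0.5%), uncentred, with medians of 0.112 to 0.116 and its making not stated.

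Log2 of the deposited intensity minus each array's 75th percentile was analysed, without control spots and 113 flagged values; saturated spots were kept. Accessions were matched to RefSeq symbols (28206 probes to 1 gene, 0 to several, 33331 to none). The scanner files used here carry no gene-name column, so names came from accessions alone. A probe needed signal well above background on at least 3 arrays, and at least 2 values per group. The tested probe of highest mean signal stood for its gene, giving 34915 features. Groups were compared with limma 3.58.1 (R 4.3.3), two-sided, with no covariates and Benjamini-Hochberg adjustment at 0.05; residual degrees of freedom were 4 and prior ones 1.8. No list was tested. On data simulated for this comparison with 34915 features, it called 49.4% of changes of 1 log2 unit and 78% of those of 2.

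Named members were the 3 smallest p values per role, the catalytic and ubiquitin-handling subunits, every chaperone or like-named gene, and genes with probes of differing sign; per list, up to 3 genes with the smallest unadjusted p under 0.05, else the 2 brightest. Values of further members and listed genes are given to account for them. The result of 1 listed gene is not reported here. Scaling, background, filter, probes, variance model, slide, pairing and each left-out rat were varied.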

Additional observations from a re-analysis of the deposited data

How the results depend on the processing

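No member passed the adjusted test under any setting that was run. Members at an unadjusted p under 0.05 were 0 in the reported analysis, 4 with an intensity trend (Psma4, Psmc1, Psmc2 and Psmd4; 13.3% of features), 1 with slide as a fixed term and 1 within slide 1 (Psma8; 6.85% and 7.84% of features), 2 on the 4 arrays outside column 4 (Psma5 and Psmd12; 18.5%), and 0 to 4 with 1 rat left out. Over all features, 0 were called as reported, 2 with normexp and quantile normalization, 1 with slide as a fixed term, 1 within slide 1, and 0 to 640 with 1 rat left out: 640 without DNPT 1 and 3 without vehicle 2. The core median of 0.056 became -0.017 with quantile normalization, -0.024 with cyclic loess, -0.018 both with slide as a fixed term and within slide 1, 0.138 on the 4 arrays outside column 4, and 0.026 to 0.166 with 1 rat left out. The cap median of 0.100 became 0.022, 0.012 and 0.008 with quantile, cyclic loess and normexp, and 0.065 to 0.129 with 1 rat left out. The core minus cap difference became 0.013 with the mean of all tested probes, and ran from -0.049 to 0.036 with 1 rat left out. The replicate numbers did not pair the rats (correlations of -0.177, -0.059 and -0.179), and the replicate block left 0 members called, 0 at an unadjusted p under 0.05, a core median of 0.056 and a cap median of 0.100. The brightest probe was chosen anew in each subset of arrays. Psmb4 was therefore read by its other probe without DNPT 1, without vehicle 3 and on the 4 arrays outside column 4. Array column as a block and the 4 arrays outside column 4 were chosen after seeing the data. Names by accession alone equalled the reported analysis, and normexp used the median spot signal. The causes were not tested. Signal over background limited Psma8 only, among members.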
